A study of Homo sapiens with 2 samples.

Results

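Signal peptidase and signal peptide peptidase are the membrane proteases of the endoplasmic reticulum (ER) that deal with signal peptides, and their messages were followed in HEK293T, a long-established line of human embryonic kidney cells. The members were the 6 genes SEC11A, SEC11C, SPCS1, SPCS2, SPCS3 and HM13, taken by symbol from 57820 gene IDs, and each symbol matched exactly 1 ID. Messenger RNA was sequenced in 2 libraries, 1 of cells treated with SRα siRNA and 1 of cells treated with control siRNA; the labels name no other treatment and give no siRNA sequence, time or dose. SRPRA encodes SRα, which together with SRPRB forms the SRP receptor. SRP, the signal recognition particle, binds the signal peptide as it leaves the ribosome, and its receptor docks that ribosome at the ER membrane. The comparison asks whether the messages of the enzymes that act after targeting differ in level when this receptor subunit is depleted. With 1 library per group there is no replicate check and no test, and every interval below covers counting error only.

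Signal peptidase works beside the translocon and cuts the signal peptide from a protein while it is still being made. SEC11A and SEC11C are alternative catalytic subunits, each held in a complex with the accessory subunits SPCS1, SPCS2 and SPCS3. The freed signal peptide remains in the membrane, and signal peptide peptidase, an aspartyl protease encoded by HM13, cuts it within the membrane. HM13 also takes part in the removal of some membrane proteins from the ER.

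Gene reads totalled 3896721 in the SRα siRNA library and 2445200 in the control siRNA library. Levels are given as CPM, read counts scaled to library size. The depleted gene SRPRA stood at 117 CPM in the SRα siRNA library and 205 CPM in the control siRNA library. Its log2 ratio was -0.81, with a 95% counting interval of -0.998 to -0.63. At 0.570 times the control level, the SRPRA message was less than 2-fold lower, and SRα protein was not measured here. Of 6 genes listed as marks of HEK cells, 4 were matched by ID and all 4 had reads (VIM, NEFM, PAX2 and ENO2), with a summed level of 538 CPM in the SRα siRNA library and 433 CPM in the control siRNA library. Markers of leukocytes, hepatocytes, endothelium and fibroblasts summed to between 1.04 and 4.16 CPM per list in the SRα siRNA library and between 1.21 and 2.83 CPM in the control siRNA library.

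Part of what can be measured of these genes is set by their sequence, because only reads aligned to 1 place were counted. SPCS2 lies on chromosome 11, and 4 processed pseudogenes of it are annotated elsewhere. The stretch below shows how alike the copies are. It is the first 60 bases of the longest run that the SPCS2 coding sequence shares with SPCS2P4 on chromosome 1, beginning at coding base 88, and it is followed by the same place in SPCS2P4 and in SPCS2P1 on chromosome 15. Capitals mark bases that differ from SPCS2.
SPCS2: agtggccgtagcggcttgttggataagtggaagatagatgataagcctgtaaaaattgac
SPCS2P4: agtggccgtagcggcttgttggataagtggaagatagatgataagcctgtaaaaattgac
SPCS2P1: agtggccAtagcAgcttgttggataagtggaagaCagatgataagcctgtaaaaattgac

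SPCS2P4 matched SPCS2 at 678 of the 681 coding bases (99.6%), and the longest identical run was 405 bases. SPCS2P1 was 94.1% identical over the aligned bases, SPCS2P3 89.9% and SPCS2P2 86.7%. A read that lies wholly within the shared run of SPCS2 and SPCS2P4 matches both sequences in full. Where the aligner ranked the 2 places equally, such a read was not counted for either, and how often this happened was not tested.

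The catalytic subunits are the other pair of related sequences. SEC11A is on chromosome 15 and SEC11C on chromosome 18, and their coding sequences were 72% identical over 539 aligned bases, with no identical run longer than 16 bases. The stretch below is the 60 bases of the SEC11A coding sequence most like SEC11C. It runs over the codons of the catalytic serine, and capitals mark the 11 bases at which SEC11C differs.
SEC11A: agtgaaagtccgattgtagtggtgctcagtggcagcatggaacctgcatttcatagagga
SEC11C: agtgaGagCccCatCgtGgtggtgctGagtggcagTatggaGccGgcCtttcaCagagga
Even where they are most alike, these paralogs differ at many bases.

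Each of the 6 messages was measured at a similar level in both libraries, although SPCS2 had too few reads to bound its difference closely. No member was at least 2-fold lower or higher in the SRα siRNA library, where 2.57% of the 12747 genes that averaged 1 CPM or more were at least 2-fold lower and 2.15% at least 2-fold higher. No member was at least 1.2-fold lower or higher either, against 18.4% and 17.5% of these genes. Every member but SPCS2 averaged more than 50 CPM, and among the 4007 genes at this level the shares were 0% at least 2-fold lower, 0.0499% at least 2-fold higher, 2.92% at least 1.2-fold lower and 5.24% at least 1.2-fold higher. A count of 0 among 6 genes is little different from the 2-fold shares and from the shares at 50 CPM. The 1.2-fold shares at 1 CPM are larger, and 6 genes are too few to read a difference from them. SPCS1 and SPCS2 lay just inside the 1.2-fold limit and passed it, as 2 members lower, when library totals, totals without the most abundant genes or a correction for GC content were used.

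**Figure D1:**
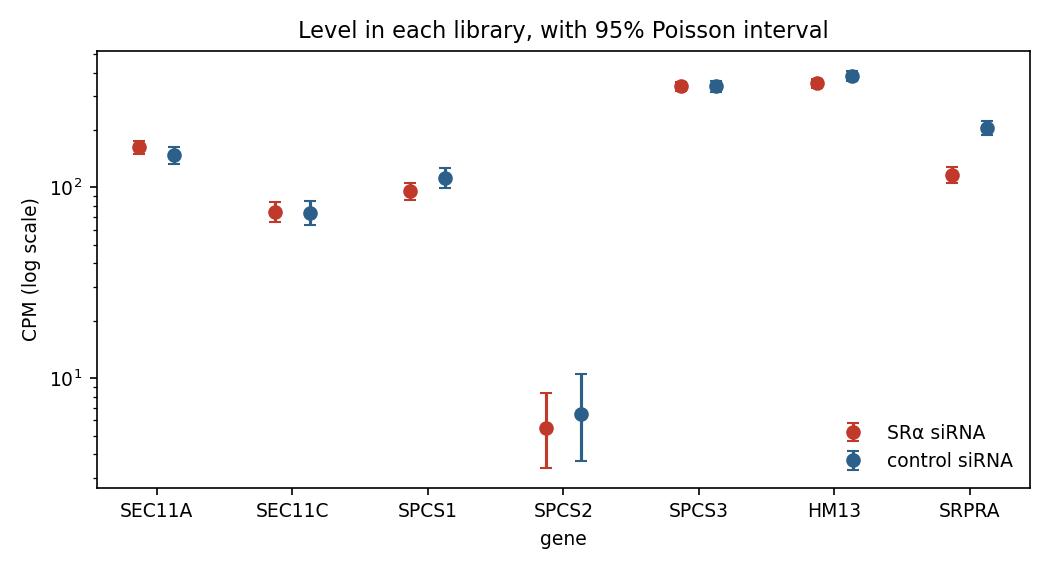
Level of each member and of SRPRA in CPM on a log axis, with 1 point per library (SRα siRNA left, control siRNA right) and bars for the 95% Poisson interval of the read count. The 2 points of each member lie close together, SPCS2 stands far below the others at 5.46 and 6.46 CPM, and SRPRA shows the widest gap.

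Of the catalytic subunits, SEC11A had 624 reads in the SRα siRNA library, or 162 CPM, and 365 reads in the control siRNA library, or 147 CPM. Its log2 ratio of 0.14 (-0.05 to 0.33) was the highest of the 6 members, and the interval includes 0. SEC11C had 286 reads and 74.3 CPM in the SRα siRNA library and 183 reads and 73.9 CPM in the control siRNA library. Its log2 ratio was 0.01 (-0.26 to 0.28), so a difference of about 1.2-fold either way could not have been seen at this depth.

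The balance between the catalytic subunits needs no scaling between libraries. SEC11C held 31.4% of the SEC11A and SEC11C reads in the SRα siRNA library (exact binomial interval 28.4% to 34.6%) and 33.4% in the control siRNA library (29.5% to 37.5%). These intervals overlap for most of their width, and the difference between the shares was not tested. Per kb of transcript, which allows for the shorter SEC11C message, the SEC11C share was 38.7% and 40.9%, so SEC11A was the more abundant message of the pair in both libraries on either scale.

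The accessory subunits differed among themselves. SPCS3, a glycoprotein subunit that is needed for signal peptidase activity, had 1304 reads in the SRα siRNA library and 839 in the control siRNA library, which came to 339 CPM in each. Its log2 ratio was 0.00 (-0.13 to 0.13), and its well-read message gives a narrow interval that reaches only 1.09-fold to either side. Only HM13 had a narrower interval among the members.

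SPCS1, a small accessory subunit, had 367 reads and 95.4 CPM in the SRα siRNA library and 279 reads and 113 CPM in the control siRNA library. Its log2 ratio of -0.24 (-0.47 to -0.01) was, with that of SPCS2, the lowest of the members, and 3.94% of the genes of at least 50 CPM had a lower one. The upper end of the interval only just misses 0. Its principal transcript overlaps no other annotated gene, but longer annotated transcripts of SPCS1 overlap exons of NEK4 and GLT8D1 on the opposite strand. NEK4 had 136 and 68 reads in the SRα siRNA and control siRNA libraries, and GLT8D1 had 118 and 85. Use of strand in counting is not stated, and the part of these neighbours in the SPCS1 count was not tested.

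SPCS2, the subunit known to contact the translocon, had 21 reads in the SRα siRNA library and 16 in the control siRNA library, or 5.46 and 6.46 CPM. Its log2 ratio was -0.24 (-1.25 to 0.79). The point value is as low as that of SPCS1, but the interval runs from 0.420 to 1.73 times the control level, and so no difference up to about 2-fold could have been detected for this gene.

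**Figure D2:**
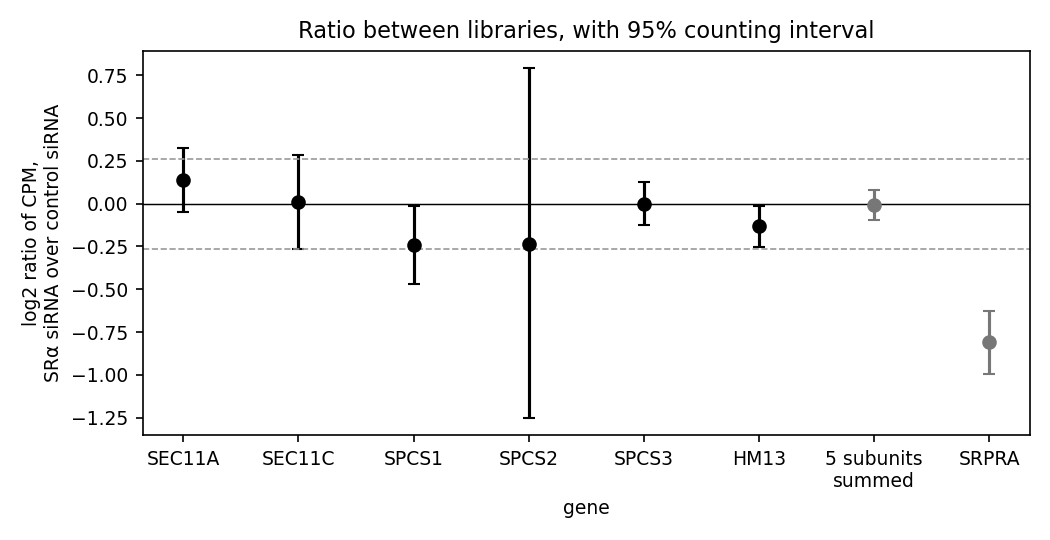
Log2 ratio of CPM, SRα siRNA over control siRNA, for the 6 members, the 5 signal peptidase subunits summed and SRPRA, with bars for the 95% counting interval and dashed lines at 1.2-fold. The intervals of SPCS1 and HM13 end just below 0, those of the other members include 0, and SRPRA at -0.81 lies below every member.

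HM13 had the most reads of the 6, with 1351 reads and 351 CPM in the SRα siRNA library and 953 reads and 385 CPM in the control siRNA library. The log2 ratio was -0.13 (-0.25 to -0.01), a ratio of 0.912 (0.839 to 0.992). Of the genes of at least 50 CPM, 12.2% had a lower ratio. With SPCS1, HM13 was 1 of 2 members whose counting interval lay wholly below 0, where 4.89% of genes of at least 50 CPM (and 3.39% of those of at least 1 CPM) had such an interval. No member's interval lay wholly above 0, against 11.7% and 5.46% of genes. Whether an interval leaves out 0 depends on the read count, and genes of at least 50 CPM differ widely in it. With 6 members, no difference from these shares is read. The interval takes no account of differences between any 2 cultures. The genes that lie within HM13 had few reads, with 25 and 22 for MCTS2P and 1 and 1 for HM13-AS1 in the SRα siRNA and control siRNA libraries, and HM13-IT1 had 0 in both.

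Taken as 1 complex, the 5 signal peptidase genes had 2602 reads in the SRα siRNA library and 1682 in the control siRNA library. Their summed level was 676 and 679 CPM, a log2 ratio of -0.01 (-0.10 to 0.08). SPCS3 weighs most in this sum, with 50.1% (48.2% to 52.1%) of the reads in the SRα siRNA library and 49.9% (47.5% to 52.3%) in the control siRNA library. SPCS1 held 14.1% (12.8% to 15.5%) and 16.6% (14.8% to 18.5%), and SEC11A held 24.0% (22.4% to 25.7%) and 21.7% (19.8% to 23.7%), in the same order of libraries. For both subunits the 2 intervals overlap, but overlap does not compare the shares directly, and no difference in share was tested. The ratio interval of SPCS1 itself lay wholly below 0 (-0.47 to -0.01), while that of SEC11A included 0 (-0.05 to 0.33).

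**Figure D3:**
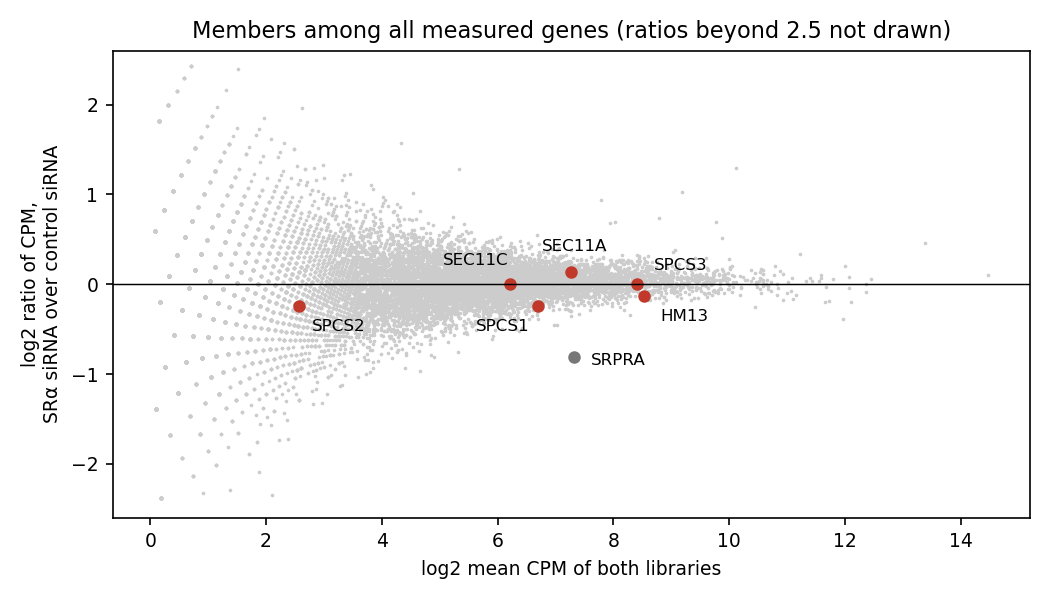
Log2 ratio of CPM, SRα siRNA over control siRNA, against the log2 mean CPM of both libraries for genes of at least 1 CPM (grey), with the 6 members in red and SRPRA in dark grey. The members sit inside the cloud of genes of like level, SPCS1 and HM13 in its lower part, while SRPRA lies below it.

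Among the members themselves, levels per length had the same order in both libraries, in CPM per kb of the principal transcript annotated by GENCODE 29. HM13 came first with 219 CPM per kb in the SRα siRNA library and 240 in the control siRNA library. SPCS1, whose transcript is only 832 bases long, followed with 115 and 135. SEC11A had 97.9 and 89.0, SPCS3 had 74.1 in each, and SEC11C had 61.8 and 61.5. SPCS3 thus had more reads than SEC11A but less per kb. The SPCS3 transcript is 4571 bases long and 11.9% of it is coding, against 1656 bases and 32.6% for SEC11A. The transcripts in use in these cells were not determined, so these levels depend on the annotated lengths.

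SPCS2 came last by a wide margin, at 2.02 CPM per kb in the SRα siRNA library and 2.39 in the control siRNA library. The other 4 subunits of the complex stood 30.7 to 56.9 times higher per kb in the SRα siRNA library and 25.8 to 56.8 times higher in the control siRNA library. Of all words of 50 bases in the SPCS2 transcript, 19.0% occur in a transcript of another gene, all of them in SPCS2P4, and with words of 30 or 75 bases the share was 21.7% or 16.9%. At 50 bases the share was 3.05% for SEC11A, 1.46% for SPCS3 and 0% for SPCS1, SEC11C and HM13. Annotated copies thus cover the coding part of SPCS2, which is 25.1% of its transcript, and the remaining transcript had no copy among annotated transcripts. The genome itself was not searched, and the part of lost reads in the low SPCS2 count was not tested. SPCS2P4 had 2 reads in the SRα siRNA library and 0 in the control siRNA library, SPCS2P1 had 1 and 0, and SPCS2P2 and SPCS2P3 had 0 in both. For uniquely aligned reads, the upper limit for a count of 0 was taken as 3 reads. That is 0.78 CPM in the SRα siRNA library and 1.21 CPM in the control siRNA library. Reads that align equally well to SPCS2 and a pseudogene fall outside this limit, so it does not bound the level of SPCS2P4. SEC11B, a processed pseudogene that shares its longest runs with SEC11A, had 9 and 4 reads.

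**Figure D4:**
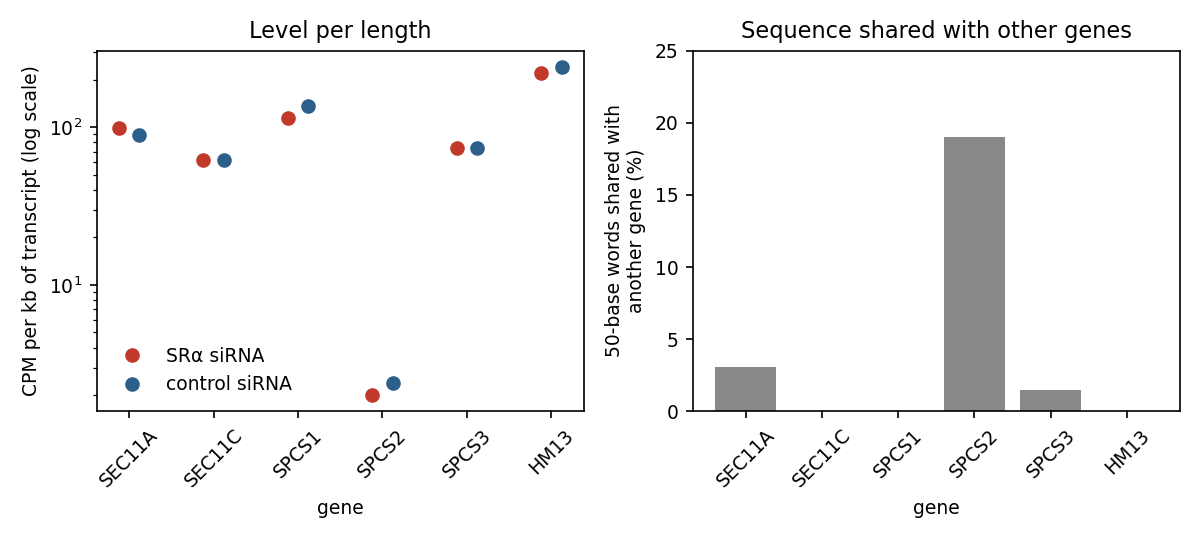
Left, level of each member in CPM per kb of its principal transcript on a log axis in the SRα siRNA (red) and control siRNA (blue) library. Right, percent of the transcript's 50-base words found in a transcript of another gene: SPCS2 is both the lowest in level, at 2.02 and 2.39 CPM per kb, and the one with the most shared sequence, at 19.0%.

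The genes on either side of signal peptide removal were described by their counts and medians. The list of 5 signal peptidase genes had a median log2 ratio of 0.00 and the 6 members together had -0.07, with 3 higher and 3 lower, beside 0.01 for all genes of at least 1 CPM and 0.04 for those of at least 50 CPM. Of all genes, 51.4% were higher and 48.6% lower at 1 CPM or more (45.5% higher with library totals), and 59.9% were higher at 50 CPM or more, so the tallies of higher and lower genes in lists this small are descriptions alone. The 12 translocon genes, whose products form the channel and its partners, had a median of 0.02, with 7 higher and 5 lower. Their lowest were SEC61A2, a second form of the channel's main subunit, at -0.37 (-0.79 to 0.05) and SSR4, a subunit of the translocon-associated protein complex, at -0.29 (-0.42 to -0.15). Their highest were SEC62, which serves post-translational import, at 0.17 (-0.02 to 0.38) and TRAM2 at 0.16 (-0.61 to 0.97). Beside SSR4, the intervals of SSR2 at -0.21 (-0.31 to -0.10) and SEC61A1 at -0.11 (-0.20 to -0.02) lay wholly below 0. No translocon interval lay wholly above 0. Among genes of at least 50 CPM, 4.89% had an interval wholly below 0 and 11.7% wholly above. These shares also depend on the read count, and with 12 genes no difference from them is read. The 8 protein genes of SRP and its receptor, with SRPRA, had a median of -0.01, with 4 higher and 4 lower. Beside SRPRA the low end was SRP9 at -0.21 (-1.26 to 0.85), and the high end SRP72 at 0.17 (0.01 to 0.33) and SRP68 at 0.10 (-0.04 to 0.24).

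HM13 belongs to a family of intramembrane aspartyl proteases that also holds the SPP-like proteases of later compartments and the presenilins of gamma-secretase. Of 6 relatives, 5 were measured and SPPL2C had 0 reads in both libraries. Their median log2 ratio was -0.07, with 2 higher and 3 lower. SPPL2B had 43 reads in the SRα siRNA library and 38 in the control siRNA library, a log2 ratio of -0.45 (-1.12 to 0.21), and SPPL3, a Golgi protease that clips glycosyltransferases, had 103 and 86 reads and -0.37 (-0.80 to 0.05). These were the 2 of 5 relatives past 1.2-fold lower, where 18.4% of genes of at least 1 CPM were, and nothing particular to the family is read from so few. PSEN2 had 0.04 (-0.31 to 0.40) and SPPL2A 0.03 (-0.41 to 0.47). The 4 gamma-secretase partners had a median of -0.06, from APH1A at -0.22 (-0.48 to 0.04) and NCSTN at -0.07 (-0.26 to 0.12) to PSENEN at -0.05 (-0.57 to 0.47) and APH1B at 0.15 (-0.81 to 1.18). Every interval named in this family other than that of HM13 includes 0.

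Genes whose products meet signal peptide peptidase in the ER had a median of 0.06, with 4 of 5 higher, beside 51.4% of all genes of at least 1 CPM. DERL1, a membrane protein of ER-associated degradation, had 266 reads in the SRα siRNA library and 149 in the control siRNA library, a log2 ratio of 0.20 (-0.09 to 0.50). RNF170, a ubiquitin ligase of the ER membrane, had 51 and 22 reads and 0.57 (-0.17 to 1.37). The ubiquitin ligase RNF139, which works with HM13, had 0.01 (-0.44 to 0.48), and HMOX1, a tail-anchored substrate of HM13, had -0.14 (-0.50 to 0.22). The intervals of these 4 genes all include 0.

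Proteases that cut proteins later in the secretory pathway, or cut other proteins in mitochondria, serve as neighbours in function. The 6 proprotein convertases and site proteases had a median log2 ratio of -0.21, with 1 higher and 5 lower. Of the 6, 2 were at least 1.2-fold lower, beside 18.4% of genes of at least 1 CPM, and with 6 genes nothing is read from that count. PCSK7 had -0.44 (-1.21 to 0.32) and MBTPS1, the site-1 protease of the Golgi, had -0.31 (-0.67 to 0.05), whereas FURIN had -0.03 (-0.58 to 0.53) and the site-2 protease MBTPS2 had 0.02 (-0.25 to 0.31). The 6 mitochondrial presequence proteases, which cut or trim proteins inside mitochondria, had a median of 0.09, with 5 higher and 1 lower. IMMP1L had -0.09 (-0.55 to 0.38) and MIPEP 0.05 (-0.27 to 0.37), XPNPEP3 had 0.10 (-0.15 to 0.35) and IMMP2L had 0.42 (-0.67 to 1.61) from 23 and 11 reads. None of these 8 genes had an interval that leaves out 0, and no difference between the lists was tested.

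**Figure D5:**
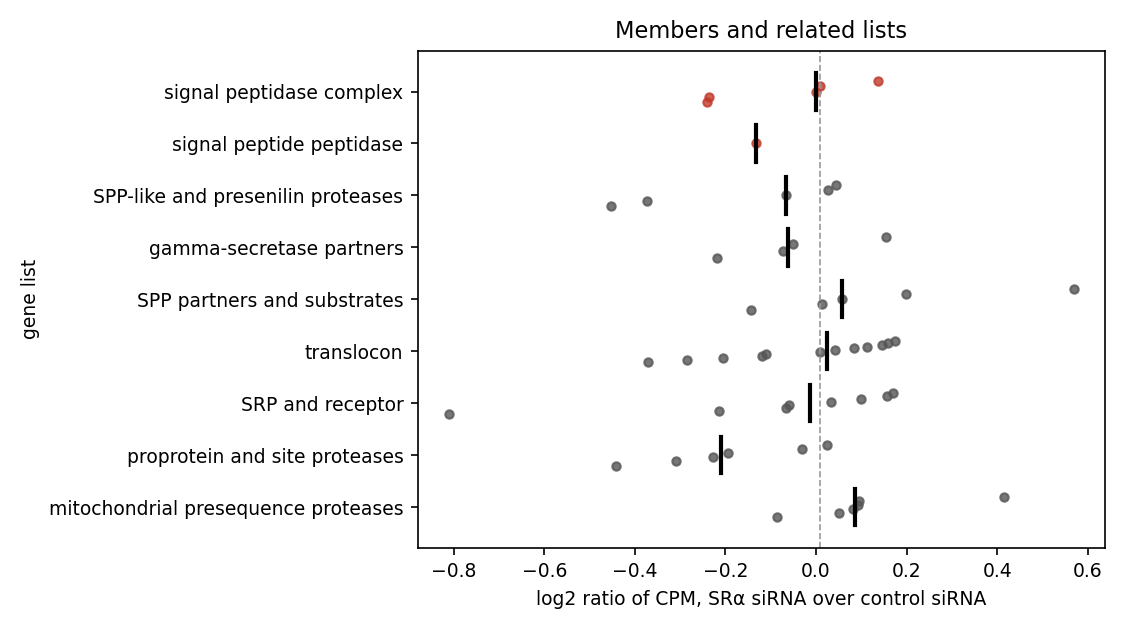
Log2 ratio of CPM, SRα siRNA over control siRNA, of each measured gene (points, spread vertically for legibility) in the signal peptidase and signal peptide peptidase lists (red) and 7 related lists (grey). Black bars are list medians and the dashed line is the median of all genes of at least 1 CPM; the list medians lie between -0.21 and 0.09.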

How the data were processed

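The deposited files hold whole-number read counts per gene ID for 1 SRα siRNA and 1 control siRNA library. TRIzol extraction and a TruSeq Stranded mRNA kit were used, per the labels' protocols. Reads were handled with cutadapt and STAR 2.5.2b against hg19, per the submitters' processing notes. Not given in the sources used here are the counting program, its strand setting and the annotation. The 5 summary lines were kept out of library sizes; 76.5% and 79.6% of alignments in the SRα siRNA and control siRNA libraries were not unique and not counted.

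Symbols matched 51996 of 57820 IDs. Libraries were scaled with TMM (edgeR 4.0.16, R 4.3.3). Log2 ratios used a prior count of 0.5, and intervals are exact binomial (Clopper-Pearson, 95%) or Poisson; reads without molecular identifiers are not independent molecules, so they cover counting error only. Transcript lengths, sequences and overlaps came from GENCODE 29 (GRCh38), matched by gene ID, and no coordinates are given because the files' build differs. The principal transcript is the longest of the best APPRIS class. Coding sequences were aligned globally with Biopython 1.88. The procedure was tested on simulated counts with Poisson error alone, which cannot show how the intervals do with differences between cultures.

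Named genes were the 6 members, SRPRA, and up to 2 highest and 2 lowest ratios of each list among genes of at least 5 CPM. SSR2 and SEC61A1 were named in addition, for their intervals. Members, lists and limits were chosen with earlier results of these data known. The limit of 50 CPM, the interval counts, the share of complex reads, the sequence comparisons and the alternatives for counts of members past 1.2-fold were added after values were seen. Alternatives were other scalings (upper quartile, DESeq2 1.42.0 size factors, plain totals, and totals less the 10 most-read and all mitochondrially encoded genes), a prior count of 2, other filters and GC correction. GC correction subtracted the median ratio of genes of like GC content (10 groups). GC content was that of each gene's longest annotated transcript, which need not be the principal transcript.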

Additional observations from a re-analysis of the deposited data

How the results depend on the processing

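No paired analysis was possible because each group has 1 library. All 36 recomputed member ratios stayed within their counting intervals. SPCS1 ranged from -0.29 to -0.24 (log2), HM13 from -0.17 to -0.13, SEC11A from 0.10 to 0.14 and the summed complex from -0.05 to 0.00, while SPCS3 (-0.06 to 0.01) and SEC11C (-0.05 to 0.01) lay on either side of 0. Members at least 1.2-fold lower numbered 0, but 2 with library totals and 2 with GC correction. They also numbered 2 with totals less the 10 most-read and all mitochondrially encoded genes. Under every scaling run and under GC correction, 2 member intervals lay wholly below 0. The prior count does not enter the intervals, so it could not change that number. The translocon median of 0.025 was -0.035 with GC correction. The SEC11C share of 31.4% and 33.4% became 38.7% and 40.9% per kb in the SRα siRNA and control siRNA libraries. Genes at least 2-fold higher numbered 274, or 2872 with no filter and 32 with a filter of 5 CPM. Genes at least 2-fold lower numbered 328, or 2029 with no filter, 30 with a filter of 5 CPM and 178 with a prior count of 2. Depth limits SPCS2 most.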
